A study of Mus musculus with 4 samples.

Results

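Chondrocyte-like wall cells are cells of the mouse aorta whose RNA holds transcripts typical of cartilage. They were chosen here by their own RNA, so the genes of the rule describe them and are no finding. A droplet barcode was kept when it held at least 1000 unique molecular identifiers (UMIs, each counting 1 captured RNA molecule) and at most 10% of them came from mitochondrial genes. A kept barcode was taken as a member when it held at least 5 UMIs of Col2a1, Acan, Cytl1 and Ibsp together with at least 2 of these 4 genes seen. It also had to hold at most 2 UMIs of the macrophage complement genes C1qa, C1qb and C1qc, and less than 3% of its UMIs from the contractile genes Acta2, Tagln, Myh11 and Myl9. This rule found 968 members among 37865 kept barcodes.

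The series measured single-cell RNA from digested aorta with a 10x Genomics 3' kit in 4 libraries, 1 library for each of 4 groups of mice. Normal diet was given to WT and to LysM-DKO mice, and western diet to WT/ApoE-/- and to LysM-DKO/ApoE-/- mice, and values given for 4 libraries follow this order. The labels do not spell out which genes the DKO lacks, how many mice or aortas entered a library, or their age. As background, LysM (Lyz2) is a promoter commonly used to drive Cre in myeloid cells, and ApoE-/- mice lack apolipoprotein E and form atherosclerotic plaques on western diet. ApoE loss was common to both western diet libraries and absent from both normal diet libraries, so diet and ApoE genotype cannot be told apart. The RNA followed the labels for ApoE: Apoe stood at 549 and 946 UMIs of the gene per 1000000 UMIs (CPM) over the kept barcodes of the normal diet libraries and at 4.47 and 1.92 CPM in the western diet libraries. Xist RNA, which marks female cells, differed with diet as well. It stood at 950.3 and 949.7 CPM on normal diet and at 0.636 and 0.562 CPM on western diet. The Y-linked gene Ddx3y stood at 0 and 0 CPM on normal diet and at 117 and 124 CPM on western diet. Sex as read from these RNAs therefore cannot be told apart from diet and ApoE genotype either.

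Cartilage is made by chondrocytes, which under the transcription factors Sox9, Sox5 and Sox6 secrete type II, IX and XI collagens and the proteoglycan aggrecan. Before cartilage turns to bone, hypertrophic chondrocytes switch to type X collagen, matrix metalloproteinase 13 and alkaline phosphatase, and mineral forms in the matrix. In atherosclerotic arteries, smooth muscle cells are known to lose contractile proteins and pass through a fibroblast-like, modulated state, and some take on cartilage and bone genes in regions of calcification.

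Nearly all members came from the western diet libraries, and most of them from WT/ApoE-/-. The 4 libraries held 14, 17, 856 and 81 members among 7758, 8230, 13744 and 8133 kept barcodes. Their share of the kept barcodes was 0.180% (95% interval 0.0987 to 0.303), 0.207% (0.120 to 0.331), 6.23% (5.83 to 6.65) and 0.996% (0.792 to 1.24). All intervals on shares are exact binomial intervals, those on levels are exact Poisson intervals, and both cover counting error alone. With 1 library per group there was no replicate, so no test was made between groups and no p-value is given.

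**Figure D1:**
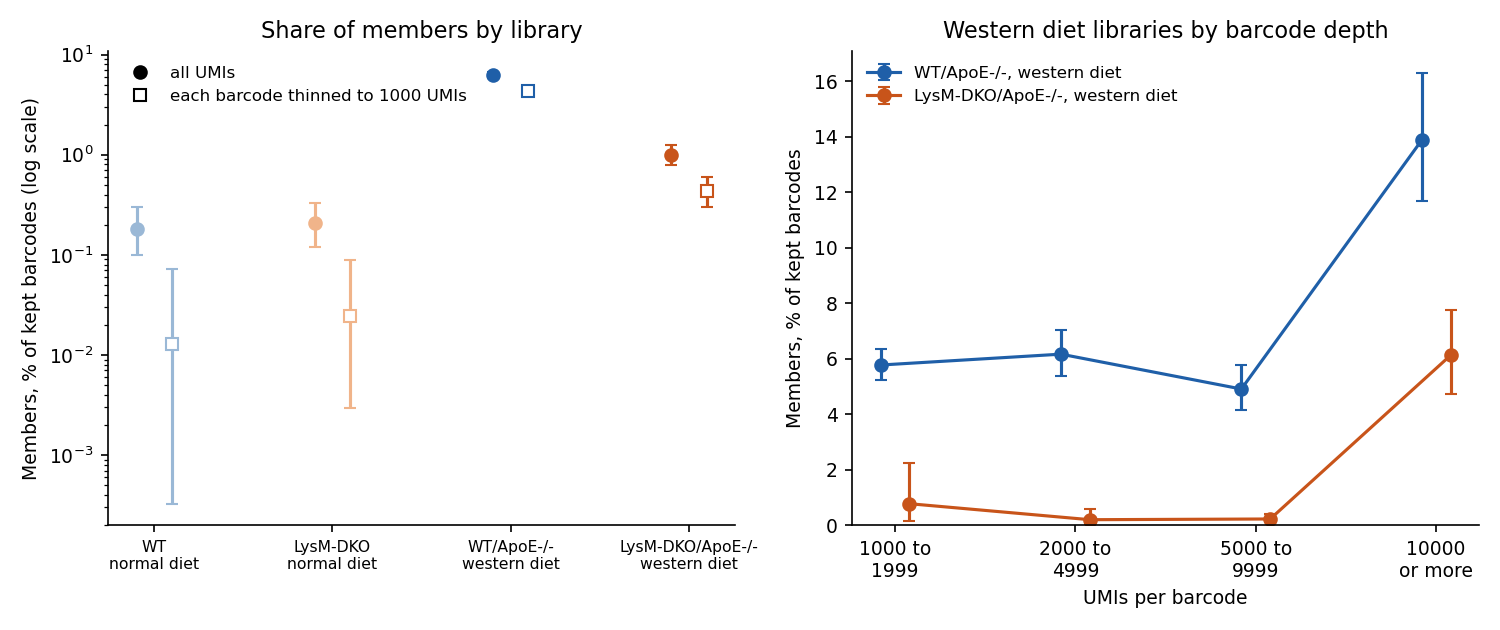
Share of kept barcodes that were members in each of the 4 libraries, in percent, with the exact 95% binomial interval for counting error. The WT/ApoE-/- western diet library stood at 6.23%, above the 0.996% of LysM-DKO/ApoE-/- and the 0.180% and 0.207% of the normal diet libraries.

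The libraries differed in depth, and this touches the share. Total UMIs ran from 50662515 to 67450979 per library, but 47.7% of the barcodes of WT/ApoE-/- held under 1000 UMIs, against 12.9% to 14.4% in the other libraries. Members had a median of 12878, 10301, 2258 and 15530 UMIs, against 4167, 3404, 2103 and 6761 over all kept barcodes. The WT/ApoE-/- members were therefore shallow, with 44.5% of them under 2000 UMIs against 3.70% in LysM-DKO/ApoE-/-. When every kept barcode was thinned at random to 1000 UMIs, the shares on western diet were 4.34% (4.0 to 4.69) and 0.430% (0.300 to 0.598), and 1 and 2 members remained on normal diet. Among barcodes of at least 10000 UMIs the share was 13.9% in WT/ApoE-/- and 6.13% in LysM-DKO/ApoE-/-, and among those from 2000 to under 5000 UMIs it was 6.17% and 0.203%. The WT/ApoE-/- share exceeded the LysM-DKO/ApoE-/- share 6.25-fold as counted and 10.1-fold after thinning. With a contractile limit of 1% in place of 3% the excess was 3.08-fold, and it was also smaller among the deepest barcodes, as the shares above show.

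Genes that the rule did not use were checked against the label. Of 13 such cartilage genes (Sox9, Sox5, Sox6, Col9a1, Col9a2, Col9a3, Col11a1, Col11a2, Comp, Hapln1, Matn3, Cnmd and Chad), members showed a median of 1, 2, 3 and 4. At least 3 of them were seen in 58.5% and 70.4% of the western diet members, and in 14.3% and 29.4% of the normal diet members. In modulated barcodes, which served as the nearest comparison, at least 3 were seen in 2.19%, 5.10%, 1.83% and 5.41%. These shares were taken at full depth, where the western diet members had medians of 2258 and 15530 UMIs. After thinning to 1000 UMIs, Sox9 was seen in 33.8% and 37.0% of western diet members, against 6.17% and 4.73% of modulated barcodes. Hapln1 was seen in 24.9% and 18.5%, against 0.868% and 0.676%. The other genes ran from Comp, in 34.1% and 40.7% against 7.72% and 8.78%, down to Matn3, in 0.117% and 0% against 0.0914% and 0%. Sox5 was seen in 7.24% and 12.3%, against 3.02% and 4.05%. Col9a1 was seen in 6.19% and 12.3%, against 0.183% and 0%, and Cnmd in 5.72% and 1.23%, against 0.0914% and 0%. Modulated barcodes are defined here as kept barcodes with both Lum and Vcam1 seen and at least 3 UMIs of these genes together, at most 1 UMI of the 4 rule genes, the same limits on complement and contractile genes, and at most 1 UMI of the fibroblast genes Pi16, Dpp4 and Pdgfra. They numbered 137, 196, 2189 and 148.

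The normal diet members largely went against the label. No UMI of Ibsp was found in them, and 11 of the 14 WT members and 14 of the 17 LysM-DKO members held neither Col2a1 nor Ibsp. They passed the rule mainly through Cytl1, which made up 73.4% and 86.8% of their marker UMIs. At least 2 UMIs of endothelial markers were found in 5 and 5 of them, and 1 WT member held 42. A few fitted the label better: 1 LysM-DKO member held 344 UMIs of Cytl1, 25 of Col2a1, 47 of Chad, 23 of Comp and 8 of Sox9, and another held 55 of Chad and 67 of Comp. The normal diet members are therefore given by value only, and the account below rests on the 856 and 81 members on western diet.

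Before the values of the rule genes, their promoters are shown because the members were defined by these genes. Each sequence runs 5′ to 3′ from 250 bases before to 50 bases after the transcription start in RefSeq, assembly GRCm38.p6, and the capitals mark matches to the searched motifs. The motifs were TATAAA (the TATA box), the CCAAT box, the core of RUNX sites written TGTGGT, and a core of SOX sites written ACAAAG or also ACAATG, each read on both strands, and no 2 of the matches marked here overlap. Col2a1 is named only.
Ibsp, chr5:104299037-104299336, plus strand: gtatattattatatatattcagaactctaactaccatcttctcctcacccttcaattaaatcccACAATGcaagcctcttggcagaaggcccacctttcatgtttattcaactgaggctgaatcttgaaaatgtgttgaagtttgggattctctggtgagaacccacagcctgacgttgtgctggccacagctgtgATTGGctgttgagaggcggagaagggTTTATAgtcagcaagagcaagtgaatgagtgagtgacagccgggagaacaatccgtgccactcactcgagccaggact
Acan, chr7:79052976-79053275, plus strand: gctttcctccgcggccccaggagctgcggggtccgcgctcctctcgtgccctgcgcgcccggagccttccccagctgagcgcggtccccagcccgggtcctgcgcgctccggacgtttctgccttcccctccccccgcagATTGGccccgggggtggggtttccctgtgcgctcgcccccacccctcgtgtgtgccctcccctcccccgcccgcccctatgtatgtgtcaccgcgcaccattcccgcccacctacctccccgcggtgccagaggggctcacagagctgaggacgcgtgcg
Cytl1, chr5:37735269-37735568, plus strand: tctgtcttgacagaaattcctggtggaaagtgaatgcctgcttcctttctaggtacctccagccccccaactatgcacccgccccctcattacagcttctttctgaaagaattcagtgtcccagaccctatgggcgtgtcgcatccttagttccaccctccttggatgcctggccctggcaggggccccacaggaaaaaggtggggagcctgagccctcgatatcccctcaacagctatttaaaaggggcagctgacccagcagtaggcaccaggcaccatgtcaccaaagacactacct

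The Ibsp window held an inverted TATAAA 28 bases before the start, an inverted CCAAT 54 bases before it and ACAATG 186 bases before it. The Acan window held an inverted CCAAT 110 bases before the start, and the Cytl1 window held none of the motifs. Across 27025 promoters of the same length, TATAAA was found in 14.2%, CCAAT in 37.9%, ACAAAG or ACAATG in 28.8% and TGTGGT in 16.9%. A match is a description of the letters and does not show that a factor binds there.

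On western diet the members carried far more of each rule gene than the modulated barcodes did, which the rule itself fixes. Col2a1 (chromosome 15, 97975602 to 98004695, GRCm38 with GENCODE M21) encodes type II collagen, the main collagen of cartilage. It stood at 33.6, 218, 9774 and 10857 CPM in members and at 30.8 and 12.8 CPM in the modulated barcodes on western diet. Acan (chromosome 7, 79053483 to 79115099) encodes aggrecan, the large proteoglycan that holds water in cartilage, and stood at 218, 223, 1111 and 1349 CPM in members. For each of these genes the western diet members of both libraries stood close together.

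Cytl1 (chromosome 5, 37735519 to 37739820), a secreted cytokine-like protein found in cartilage, stood at 694, 2902, 4537 and 4120 CPM in members. Ibsp (chromosome 5, 104299171 to 104311469) encodes integrin-binding sialoprotein of mineralizing bone and cartilage, and stood at 0, 0, 7519 and 2153 CPM. Ibsp was thus the rule gene whose level differed most between the members on western diet. It was seen in 84.3% of the WT/ApoE-/- members and 40.7% of the LysM-DKO/ApoE-/- members, and in 75.2% and 25.9% after thinning each member to 1000 UMIs. These members had medians of 2258 and 15530 UMIs.

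Free RNA was read from lymphocyte barcodes. They were defined without a limit on rule genes, so members and doublets can be among them. At least 2 UMIs of 8 lymphocyte markers were found in 12 WT/ApoE-/- members and in 0 LysM-DKO/ApoE-/- members. The values below therefore need not be free RNA alone. In WT/ApoE-/- 13.1% of 838 lymphocyte barcodes (median 2074 UMIs) held a UMI of Col2a1 and 6.68% held 1 of Ibsp, against 2.17% for both genes among 46 lymphocyte barcodes of LysM-DKO/ApoE-/- (median 2490 UMIs). The lymphocyte level of Col2a1 was 74.7 CPM in WT/ApoE-/-, or 0.764% of the level in members. Other genes described below were more common there. After thinning to 1000 UMIs, Mgp was seen in 67.8% and 63.0% of the western diet lymphocyte barcodes, against 97.0% and 95.1% of members. Spp1 was seen in 24.2% and 6.52%, against 88.8% and 48.1% of members. At least 5 marker UMIs were found in 11 of the 838 lymphocyte barcodes and in 85 of the 1324 barcodes with at least 3 UMIs of the C1q genes. Barcode sequences shared between 2 libraries numbered 9 to 41 among the kept barcodes of each pair, and no sequence was a member in both.

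The minor collagens of cartilage followed the rule genes. Types IX and XI collagen coat and seed the type II fibril. Col11a1 stood at 0, 21.3, 508 and 492 CPM in members, against 2.96 and 1.83 CPM in modulated barcodes on western diet. The log2 ratio of members over modulated barcodes was 7.39 (6.82 to 8.10) in WT/ApoE-/- and 7.75 (6.21 to 11.12) in LysM-DKO/ApoE-/-. Col11a1 was thus high in the members of both western diet libraries and rare in the barcodes beside them.

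Col11a2 stood at 0, 21.3, 311 and 380.2 CPM in members. In the modulated barcodes of LysM-DKO/ApoE-/- no Col11a2 UMI was found, so members were at least 139-fold higher, taking 3 counts over the summed class as the floor. Col9a1 stood at 0, 0, 117 and 168 CPM, Col9a2 at 0, 15.9, 103 and 62.9 CPM, and Col9a3 at 0, 0, 181 and 77.1 CPM. These 3 chains of type IX collagen stood at 0.940 to 1.48 CPM in the modulated barcodes of WT/ApoE-/-. In those of LysM-DKO/ApoE-/-, Col9a1 stood at 0.914 CPM and Col9a2 and Col9a3 had 0 UMIs. All 3 were there under the floor of 3 counts, which was 2.74 CPM. Col27a1, a fibrillar collagen of cartilage, had a smaller contrast, at 11.2, 10.6, 352 and 312 CPM in members against 19.7 and 28.3 CPM in modulated barcodes on western diet.

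Non-collagen proteins of cartilage were high in the western diet members as well. Comp, a pentameric protein that links collagen fibrils, stood at 218, 680.2, 997 and 2033 CPM in members and at 84.4 and 261 CPM in modulated barcodes on western diet. Hapln1, which ties aggrecan to hyaluronan, stood at 0, 15.9, 498 and 299 CPM. Chad, a leucine-rich protein that binds collagen and chondrocyte integrins, stood at 0, 600.5, 651 and 419 CPM, and its UMIs on LysM-DKO normal diet came from 3 members. Comp alone of these 3 genes had UMIs in the members of all 4 libraries.

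Fmod, a small proteoglycan that regulates fibril width, stood at 16.8, 69.1, 644 and 727 CPM in members. Smaller cartilage-specific transcripts were found too: Clec3a at 64.5 and 86.1 CPM and Scrg1 at 92.0 and 101 CPM in the members on western diet. Chil1, a chitinase-like glycoprotein of chondrocytes and macrophages, stood at 715 CPM in WT/ApoE-/- and 22.5 CPM in LysM-DKO/ApoE-/-. Snorc, a chondrocyte membrane proteoglycan, stood at 128 and 6.74 CPM, and Cnmd, which codes for chondromodulin, an inhibitor of vessel growth in cartilage, at 90.4 and 0.748 CPM. The last 3 genes were thus high in the WT/ApoE-/- members and far lower in the LysM-DKO/ApoE-/- members.

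**Figure D2:**
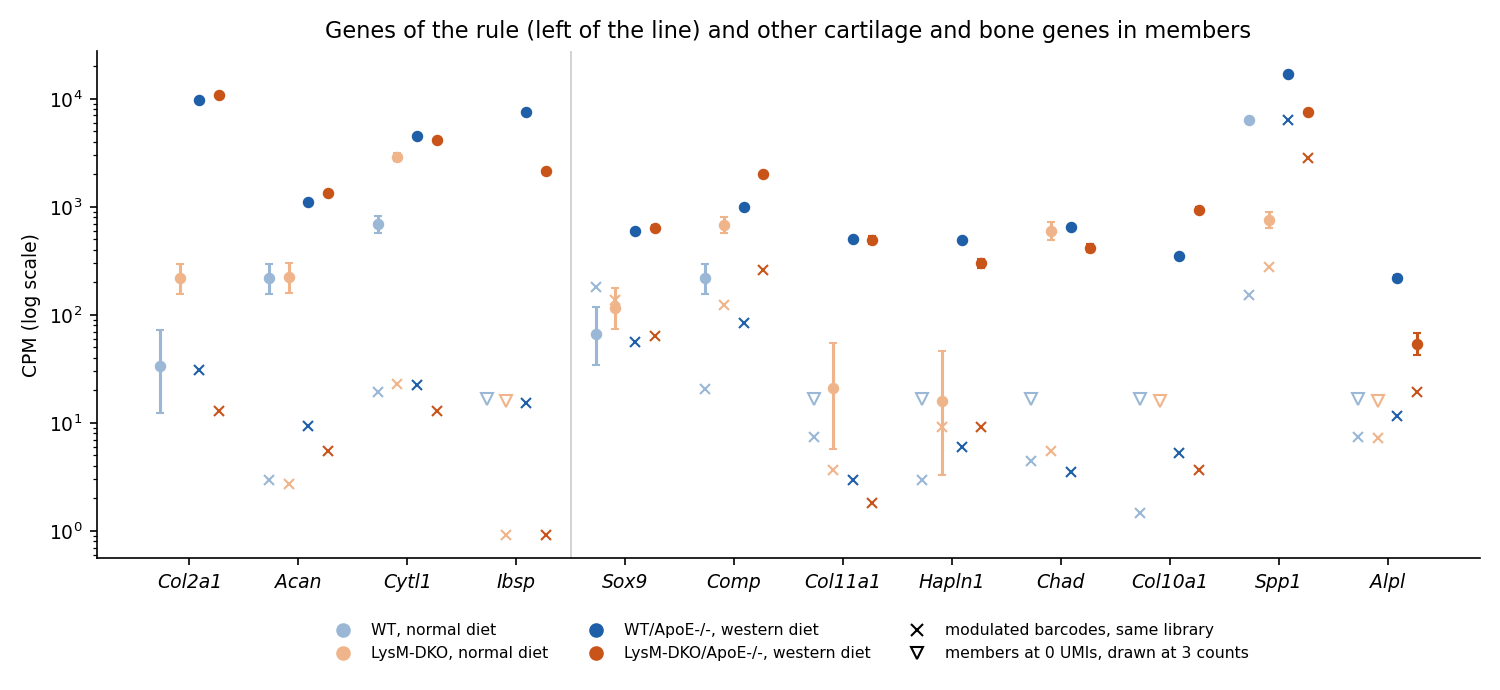
Levels in members (CPM, log scale) of genes of the rule and of the cartilage, regulator and bone lists in each library, with exact 95% Poisson intervals. Crosses mark modulated barcodes of the same library, and open triangles mark members at 0 UMIs, drawn at 3 counts. Col11a1 lies at 508 and 492 CPM in the western diet members, while Alpl lies at 219 CPM in WT/ApoE-/- and 53.9 CPM in LysM-DKO/ApoE-/-.

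Over the whole cartilage matrix list, 18 of 25 genes measured (at least 20 UMIs over both classes) were at least 2-fold higher in members than in modulated barcodes of WT/ApoE-/-, and 16 of 21 were in LysM-DKO/ApoE-/-. Over all genes measured, 4.83% were at least 2-fold higher and 5.36% at least 2-fold lower in WT/ApoE-/-, and 6.37% and 9.30% in LysM-DKO/ApoE-/-. The list median log2 ratio was 6.1 and 3.44, beside -0.12 and -0.11 over all genes measured. Since members were chosen by cartilage RNA, these counts describe the class and nothing more is read from them. None of the list was 2-fold lower in WT/ApoE-/-, while Ogn and Itm2a were in LysM-DKO/ApoE-/-. Of the whole list of 28 genes, Matn1, Matn3 and Epyc had too few UMIs to be measured in either library.

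**Figure D3:**
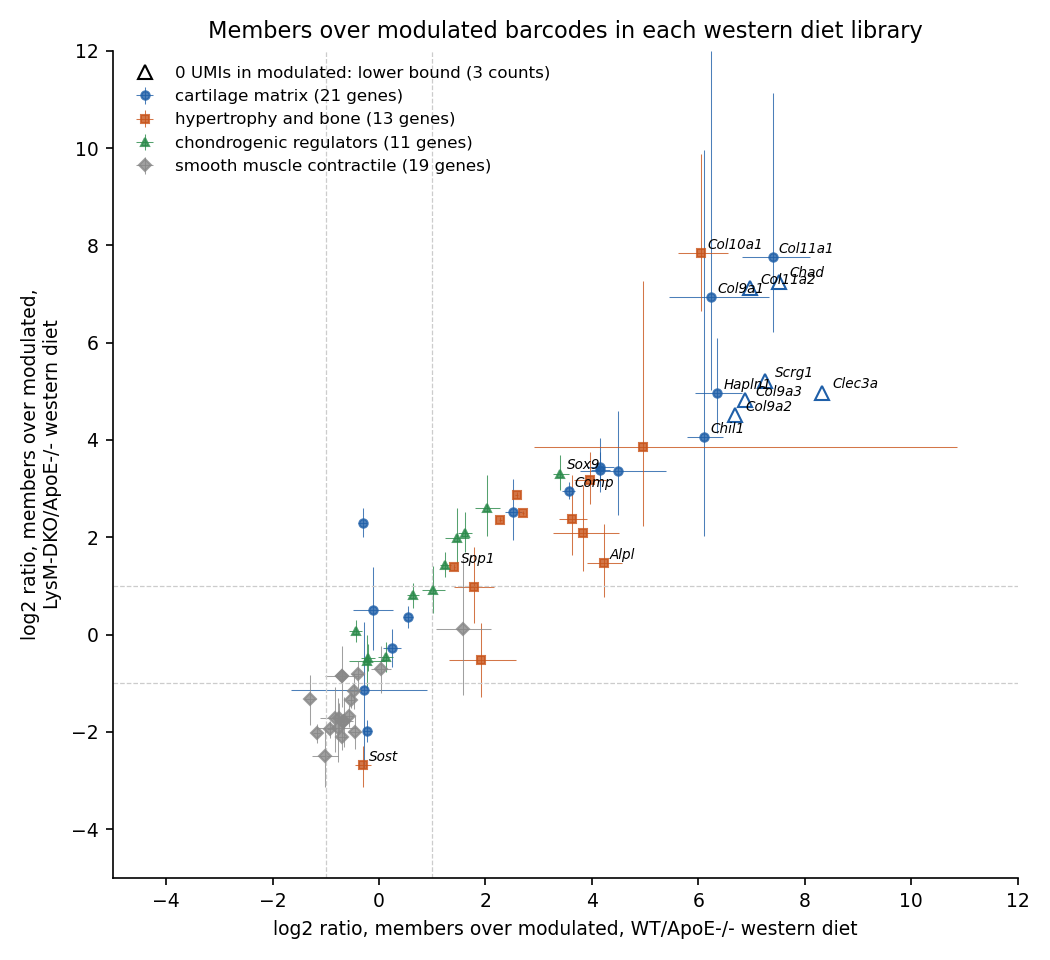
Log2 ratio of members over modulated barcodes in WT/ApoE-/- (x axis) and LysM-DKO/ApoE-/- (y axis) on western diet for genes of 4 lists, with exact 95% intervals for counting error. Open triangles are lower bounds on the y axis for genes with 0 UMIs in the modulated barcodes of LysM-DKO/ApoE-/-. Sox9 lies at 3.41 and 3.31 and Col11a1 at 7.39 and 7.75, while most contractile genes lie below 0 on both axes.

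Against all other kept barcodes of the same library, the picture was broader. Of all genes measured, 6.31% were at least 2-fold higher and 12.8% at least 2-fold lower in WT/ApoE-/-, and 14.3% and 16.1% in LysM-DKO/ApoE-/-. The 20 genes named by the rule on size were Col9a2, Col9a3, Col9a1, Col11a1, Chad, Lif, Col11a2, Col10a1, Snorc, Chil1, Hapln1, Tnn, Alpl, Omd, Sdk2, Ecrg4, Col27a1, Fap, Fmod and Comp, with log2 ratios from 6.57 down to 4.05 in WT/ApoE-/-. Lif, an interleukin 6 family cytokine, was among them without being on any list, at 0, 26.6, 258 and 308 CPM in members. Its level in the other barcodes of WT/ApoE-/- was 3.35 CPM.

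Others of these genes outside the lists were matrix or surface proteins. Tnn (tenascin N, found around bone) stood at 0, 0, 104 and 141 CPM in members, and Omd (osteomodulin, a keratan sulfate proteoglycan of bone) at 16.8, 42.5, 304 and 204 CPM. Ecrg4 stood at 5.60, 383, 1694 and 1068 CPM, and Sdk2, a cell adhesion protein, at 5.60, 15.9, 160.1 and 197 CPM. Fap, a protease of activated fibroblasts, stood at 0, 5.31, 167 and 72.6 CPM, but 1 of the 81 LysM-DKO/ApoE-/- members held 79.4% of its UMIs there. With that exception, no member held more than 25.5% of the UMIs of any of these 5 genes or of Lif in either western diet library.

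Among regulators, the SOX trio of chondrogenesis was higher in members. Sox9, the master regulator of cartilage, stood at 67.2, 117, 595 and 638 CPM in members and at 56.0 and 64.0 CPM in modulated barcodes on western diet. The log2 ratio was 3.41 (3.26 to 3.56) and 3.31 (2.97 to 3.69). Sox9 was therefore about as high in the few LysM-DKO/ApoE-/- members as in the many WT/ApoE-/- members.

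Sox5 stood at 98.5 and 113 CPM and Sox6 at 120.3 and 141 CPM in the western diet members, and both act with Sox9 on cartilage enhancers. Trps1, a GATA-type repressor of growth plate maturation, stood at 276 and 234 CPM, and Runx1 at 446 and 404 CPM. Foxa2 and Foxa3, which act in chondrocyte hypertrophy, were rare, with 37 and 63 UMIs in all WT/ApoE-/- members. In all, 8 of 16 regulators measured were at least 2-fold higher than in modulated barcodes in WT/ApoE-/- and 5 of 11 in LysM-DKO/ApoE-/-, with none 2-fold lower in either. Sox9, Sox5, Sox6, Trps1 and Runx1 passed in both libraries.

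Arid5b, Prrx1, Scx and Wwp2 stayed within 2-fold of the modulated barcodes in both libraries. Nkx3-2, a regulator of early cartilage in the embryo, had 0 UMIs in the members of every library, and Barx1 had 0 as well.

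Genes of hypertrophic cartilage and bone were higher in members too, but less evenly over cells. The promoters of Col10a1 and Mmp13 are shown because the 2 genes mark hypertrophic cartilage.
Col10a1, chr10:34389731-34390030, plus strand: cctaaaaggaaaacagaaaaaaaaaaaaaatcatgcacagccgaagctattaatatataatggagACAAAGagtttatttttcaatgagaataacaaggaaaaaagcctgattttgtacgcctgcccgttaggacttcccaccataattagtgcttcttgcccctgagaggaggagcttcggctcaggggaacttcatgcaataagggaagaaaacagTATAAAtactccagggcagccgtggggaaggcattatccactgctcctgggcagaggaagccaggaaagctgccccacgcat
Mmp13, chr9:7272264-7272563, plus strand: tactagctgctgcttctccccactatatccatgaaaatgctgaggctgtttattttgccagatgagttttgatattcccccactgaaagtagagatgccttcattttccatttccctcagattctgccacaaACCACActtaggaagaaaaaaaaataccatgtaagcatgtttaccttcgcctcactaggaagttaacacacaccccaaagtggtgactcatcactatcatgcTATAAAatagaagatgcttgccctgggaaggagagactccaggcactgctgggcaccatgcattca
The Col10a1 window held TATAAA 32 bases and ACAAAG 185 bases before the start, and the Mmp13 window held TATAAA 16 bases and an inverted TGTGGT 118 bases before it. In 17 promoters of the hypertrophy and bone list, TATAAA was found in 29.4%, CCAAT in 52.9%, TGTGGT in 35.3% and ACAAAG or also ACAATG in 35.3%. In 21 promoters of the cartilage matrix list the shares were 14.3%, 33.3%, 28.6% and 4.76%, and over all promoters, in the same order, 14.2%, 37.9%, 16.9% and 28.8%.

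Col10a1, the collagen of hypertrophic cartilage, stood at 0, 0, 351 and 941 CPM in members. Its UMIs came from 162 of 856 members in WT/ApoE-/- and from 18 of 81 in LysM-DKO/ApoE-/-, where 1 member held 78.7% of them. Mmp13, the collagenase of hypertrophic cartilage, stood at 0, 0, 186 and 0 CPM. In WT/ApoE-/- it was about as high in fibroblast barcodes, at 182 CPM, and stood at 13.7 CPM in modulated barcodes. Fibroblast barcodes held at least 2 UMIs of Pi16, Dpp4 and Pdgfra and at most 1 UMI of the rule genes. The limits on complement and contractile genes were the same. Its level was therefore not particular to members. The Mmp13 transcripts lay in 43 WT/ApoE-/- members, of which 5 held 80.2%.

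Alpl, the alkaline phosphatase that frees phosphate for mineral, stood at 0, 0, 219 and 53.9 CPM. Spp1, which encodes osteopontin of bone and of plaque cells, stood at 6298, 755, 16887 and 7500.3 CPM in members, and at 6328 and 2851 CPM in modulated barcodes on western diet. On WT normal diet 1 of the 14 members held 97.9% of its UMIs. Sparc (osteonectin), which binds collagen and mineral, stood at 1713, 3869, 22877 and 25844 CPM. Sparc was high in both western diet member groups, whereas Alpl and Spp1 were higher in WT/ApoE-/-.

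The osteoblast factors were present at low level. Runx2 stood at 41.1 and 38.2 CPM in the western diet members against 12 and 19.2 CPM in modulated barcodes, and Sp7 (osterix) at 19.1 and 9.73 CPM against 0.537 and 0.914 CPM. Phex, an endopeptidase of bone cells, stood at 123, 181, 211 and 286 CPM in members. Of late bone genes, Mepe had 85 and 5 UMIs and Dmp1 had 59 and 0 UMIs on western diet, and osteocalcin (Bglap) stood at 6.13 and 32.9 CPM, with its LysM-DKO/ApoE-/- UMIs in 3 members.

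The fibrillar collagen type I, the main collagen of bone and scar, stood far above modulated barcodes. Col1a1 was at 12031 and 17017 CPM in the western diet members against 2000 and 2328 CPM in modulated barcodes. Of the hypertrophy and bone list, 19 of 20 genes measured in WT/ApoE-/- and 10 of 13 in LysM-DKO/ApoE-/- were at least 2-fold higher in members, with list medians of 3.69 and 2.36. Sost, an inhibitor of bone formation, was the gene of the list that was higher in neither library, at 117 and 43.4 CPM in members against 145 and 281 CPM in modulated barcodes.

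Inhibitors of calcification were also carried by members. Mgp, a matrix protein that blocks mineral growth in arteries, stood at 59292, 75333, 16797 and 20775 CPM in members. On western diet this was below the modulated barcodes, at 31860 and 24780 CPM. Mgp was thus highest in the normal diet members, which also lacked most cartilage genes.

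Enpp1, which makes pyrophosphate, stood at 95.2, 165, 208 and 162 CPM in members, and Ank, which exports it, at 308, 260.4, 315 and 282 CPM. Nt5e, which turns AMP to adenosine, stood at 28.0, 0, 114 and 108 CPM, and Tnfrsf11b (osteoprotegerin, a decoy receptor that restrains osteoclasts) at 851, 547, 1135 and 825 CPM. These 4 genes of 9 measured in WT/ApoE-/- and of 8 in LysM-DKO/ApoE-/- were at least 2-fold higher than in modulated barcodes. Gas6 was at least 2-fold lower in LysM-DKO/ApoE-/- alone, with log2 ratios of -0.99 and -1.35 in the 2 libraries.

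Enzymes that modify collagen and build sulfated sugar chains were higher by smaller steps. Of genes for collagen processing, 3 of 24 measured in WT/ApoE-/- and 7 of 21 in LysM-DKO/ApoE-/- were at least 2-fold higher than in modulated barcodes, among them Pcolce2, an enhancer of procollagen cleavage, at 848 and 860 CPM in members. Of genes for glycosaminoglycan synthesis, 6 of 24 and 8 of 21 were. In LysM-DKO/ApoE-/- 2 genes of each list were at least 2-fold lower, Loxl1 and Adamts2 of the first and Has1 and Chst15 of the second. Xylt1, which starts the chains on proteoglycan cores, stood at 299.9 and 293 CPM in members against 19.2 and 21.0 CPM in modulated barcodes. Papss2, which makes the sulfate donor, stood at 78.8 and 191 CPM, and Has2, a hyaluronan synthase, at 28.2 and 48.6 CPM.

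Growth factor genes past 2-fold lay in both directions. Counts of all lists against modulated barcodes are to be read beside the shares over all genes measured. These were 4.83% higher and 5.36% lower in WT/ApoE-/-, and 6.37% and 9.30% in LysM-DKO/ApoE-/-. In the BMP and TGF-beta list, 4 of 34 and 4 of 31 genes measured were at least 2-fold higher in members, of which Bmp2, Gdf10 and Chrdl1 passed in both libraries. Lower were 1, Grem1, in WT/ApoE-/- and 3, Sost, Fstl3 and Id3, in LysM-DKO/ApoE-/-. Bmp2, a ligand that drives cartilage and bone formation, stood at 190.3, 186, 194 and 144 CPM in members against 45.9 and 33.8 CPM in modulated barcodes on western diet. Its antagonist Chrdl1 stood at 75.2 and 102 CPM. Bmp2 was about as high in the normal diet members as in the western diet members.

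In the list of Wnt, FGF, IGF and hedgehog genes, 7 of 34 were at least 2-fold higher and 5 lower in WT/ApoE-/-, and 4 of 27 higher and 9 lower in LysM-DKO/ApoE-/-. Fgfr3, the receptor that slows growth plate chondrocytes, was the gene with the highest ratio in both libraries, at 56.1 and 77.1 CPM in members against 2.55 and 6.4 CPM in modulated barcodes. Frzb, a secreted Wnt antagonist of joint cartilage, stood at 694 and 969 CPM. Wif1, another secreted Wnt inhibitor, stood at 11.2, 223, 285 and 18.7 CPM in members, high in WT/ApoE-/- and low in LysM-DKO/ApoE-/- on western diet.

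Contractile genes were present in members, within the limit the rule set. Acta2 stood at 5553, 5638, 4011 and 1344 CPM in members, against 22707 and 21025 CPM in contractile barcodes on western diet (those with at least 3% of UMIs from the 4 contractile genes). Myh11, the heavy chain of smooth muscle myosin, stood at 1360.3, 1137, 1180.0 and 410.1 CPM. The LysM-DKO/ApoE-/- members were the lowest for both. Against modulated barcodes, 3 of 19 contractile genes measured were at least 2-fold lower in WT/ApoE-/- and 14 of 19 in LysM-DKO/ApoE-/-, while 1, Pln, was at least 2-fold higher in WT/ApoE-/-.

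Genes of modulated smooth muscle were shared in part. Lum stood at 4140 and 3191 CPM in the western diet members and 4605 and 2706 CPM in modulated barcodes, which were chosen by Lum and Vcam1. Vcam1, an adhesion molecule for leukocytes, was lower in members, at 953 and 1105 CPM against 3720 and 2238 CPM. Fn1 (fibronectin) stood at 8734 and 11629 CPM against 6035 and 4313 CPM. Of the list of modulation genes, 5 of 24 were at least 2-fold higher and 3 lower in WT/ApoE-/-, and 9 higher and 2 lower in LysM-DKO/ApoE-/-. Members on western diet thus held Lum near the level of the class that had been picked for it.

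Lists for proteases, lipid and hypoxia showed few genes past 2-fold, to be read beside the shares over all genes given above. Of matrix proteases and their inhibitors, 1 of 19 was higher and 1 lower in WT/ApoE-/-, and 2 of 18 higher and 5 lower in LysM-DKO/ApoE-/-. Mmp2, a gelatinase, was higher and Adamts4, an aggrecan-cleaving enzyme, lower in both. Of lipid genes, 2 of 21 were higher and 2 lower in WT/ApoE-/-, and 4 of 19 higher and 2 lower in LysM-DKO/ApoE-/-. Insig1, a sterol-sensing protein of the endoplasmic reticulum, was higher in both. Of hypoxia and glycolysis genes, 1 of 17 was higher in WT/ApoE-/-, and 3 of 17 were higher and 1 lower in LysM-DKO/ApoE-/-, with Hk2, a hexokinase, higher in both.

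Of inflammation and complement genes, 6 of 20 in WT/ApoE-/- and 10 of 20 in LysM-DKO/ApoE-/- were at least 2-fold lower in members than in modulated barcodes. Cxcl12, a chemokine of stromal cells, stood at 177 and 120.5 CPM against 540.5 and 351 CPM. Ptgs2, the inducible cyclooxygenase, went the other way, at 685 and 1394 CPM against 138 and 151 CPM, and was the only gene of the list at least 2-fold higher in both libraries. Ier3 was the only dissociation stress gene of 17 at least 2-fold higher in both. Itih4, Mgst1, Serpinb6b, Olfr1033, Abcc9, Sncg and Fgl2 were further genes at least 2-fold lower in members in both libraries, with Itih4 at log2 ratios of -2.22 and -5.04.

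Cell cycle transcripts were rare in members. A set of 10 cell cycle genes summed to at least 3 UMIs in 5 of 856 WT/ApoE-/- members (0.584%) and 5 of 81 LysM-DKO/ApoE-/- members (6.17%), against 3.75% and 4.05% of modulated barcodes. After thinning, at least 1 UMI was found in 4.44% and 3.70% of members. In WT/ApoE-/- 8 of 15 cell cycle genes were at least 2-fold lower in members than in modulated barcodes, and in LysM-DKO/ApoE-/- none of 12 was.

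Markers of other cell types were present at levels that differed by type and library. The 9 macrophage markers summed to 39.2, 10.6, 257 and 33.7 CPM in members, against 1381 and 187 CPM in the other kept barcodes on western diet. At least 2 macrophage UMIs were found in 178 of the 856 WT/ApoE-/- members (20.8%) and 8 of the 81 LysM-DKO/ApoE-/- members (9.88%), and C1qb, C1qc, Adgre1 and Lyz2 were at 0 in the latter. Endothelial markers summed to 358, 186, 54.9 and 132 CPM in members, and at least 2 such UMIs were found in 33 and 15 western diet members. Lymphocyte markers summed to 84.0, 37.2, 18.4 and 0 CPM, smooth muscle markers to 12203, 13578, 9199 and 3581 CPM, and fibroblast markers to 3140, 3454, 14270 and 8803 CPM. Neutrophil markers summed to 5.60, 499.5, 0.227 and 0 CPM, all 94 UMIs behind the second value lying in 1 of the 17 members, and erythroid markers to 140, 154, 147 and 4.49 CPM. Schwann cell and adipocyte markers stayed at or under 10.6 CPM. The part of these transcripts in the results was not tested, except where values without such barcodes are given.

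Between the genotypes on western diet, members differed in single genes of most lists, and more of the genes past 2-fold were lower than higher in LysM-DKO/ApoE-/-. Of 10933 genes measured, 4.06% were at least 2-fold higher and 6.35% at least 2-fold lower in LysM-DKO/ApoE-/- than in WT/ApoE-/- members. The median log2 ratio was 0.03. Lower genes also outnumbered higher ones in the other classes. The shares higher and lower were 4.51% and 5.73% in modulated, 1.78% and 5.97% in contractile, and 4.68% and 5.41% in fibroblast barcodes. Sums over members cannot tell more transcript per cell from a different mix of cells. Nor can a difference between 2 libraries be told apart from a difference between mice or preparations.

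Of the cartilage matrix list, 1 of 23 genes measured was at least 2-fold higher and 7 lower, with a median log2 ratio of -0.33. Comp was the higher one, at a log2 ratio of 1.03 (0.96 to 1.10). Between the same libraries Comp had 1.63 in modulated, 0.24 in contractile and 0.12 in fibroblast barcodes. The lower ones were Cnmd, Chil1, Snorc, Ucma, Ogn, Col9a3 and Mia. Col2a1 at 0.15, Acan at 0.28, Col11a1 at -0.05 and Sox9 at 0.10 lay near 0, beside Ibsp at -1.80 (-1.86 to -1.75).

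The size of these differences ranged widely. Chil1 had a log2 ratio of -4.97 (-5.56 to -4.48), with 3151 UMIs against 30, and 5 of the WT/ApoE-/- members held 54.4% of them. Chil1 was also lower in modulated and contractile barcodes, at -2.92 and -1.68. Snorc had -4.17 (-5.39 to -3.31), with 564 UMIs against 9. Cnmd had 398 UMIs against 1, a log2 ratio of -6.33 with an interval from -12.22 to -4.43. Snorc and Cnmd were each seen in few WT/ApoE-/- members after thinning, as given above. None of the 15 regulators measured was at least 2-fold higher. Zfp423 was lower with 2 UMIs in LysM-DKO/ApoE-/- members, at a log2 ratio of -2.22 (-5.62 to -0.58), and Runx3 with 1 UMI, at -2.12 (-8.04 to -0.04).

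Of the hypertrophy and bone list, 3 of 20 genes were at least 2-fold higher and 8 lower, with a median of -0.29. Mmp13 had 820 UMIs in the WT/ApoE-/- members and 0 in the LysM-DKO/ApoE-/- members, at least 82.9-fold lower against a floor of 3 counts. This bound covers counting error of UMIs alone, and most of them lay in few members, as given above. Of these UMIs in WT/ApoE-/-, 808 lay in the 568 members without a UMI of 7 macrophage genes (Lyz2, Cd68, Csf1r, Adgre1, C1qa, C1qb and C1qc), at 246 CPM, against 10.8 CPM in the other 288. Alpl had a log2 ratio of -2.01 (-2.39 to -1.67), Pth1r, the receptor for parathyroid hormone and its related peptide, -1.59 (-1.90 to -1.30), and Spp1 -1.17 (-1.20 to -1.14).

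The 3 higher genes of that list were Bglap at 2.42 (1.70 to 3.17), Bglap2 at 1.64 (0.63 to 2.65) and Col10a1 at 1.42 (1.31 to 1.53). Bglap and Bglap2 are neighbouring, near-identical osteocalcin genes, so their UMIs may be split between them. For Col10a1 the direction turned on the 1 member that held 78.7% of its UMIs in LysM-DKO/ApoE-/-: without it the level there was 207 CPM and the log2 ratio -0.76 (-0.95 to -0.57), a setting chosen after seeing the data. Spp1 was also lower in the modulated barcodes of LysM-DKO/ApoE-/-, at a log2 ratio of -1.15, and Mmp13 had 102 UMIs in those of WT/ApoE-/- and 0 in those of LysM-DKO/ApoE-/-. In contractile and fibroblast barcodes Mmp13 was lower too, at -5.49 and -3.40.

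**Figure D4:**
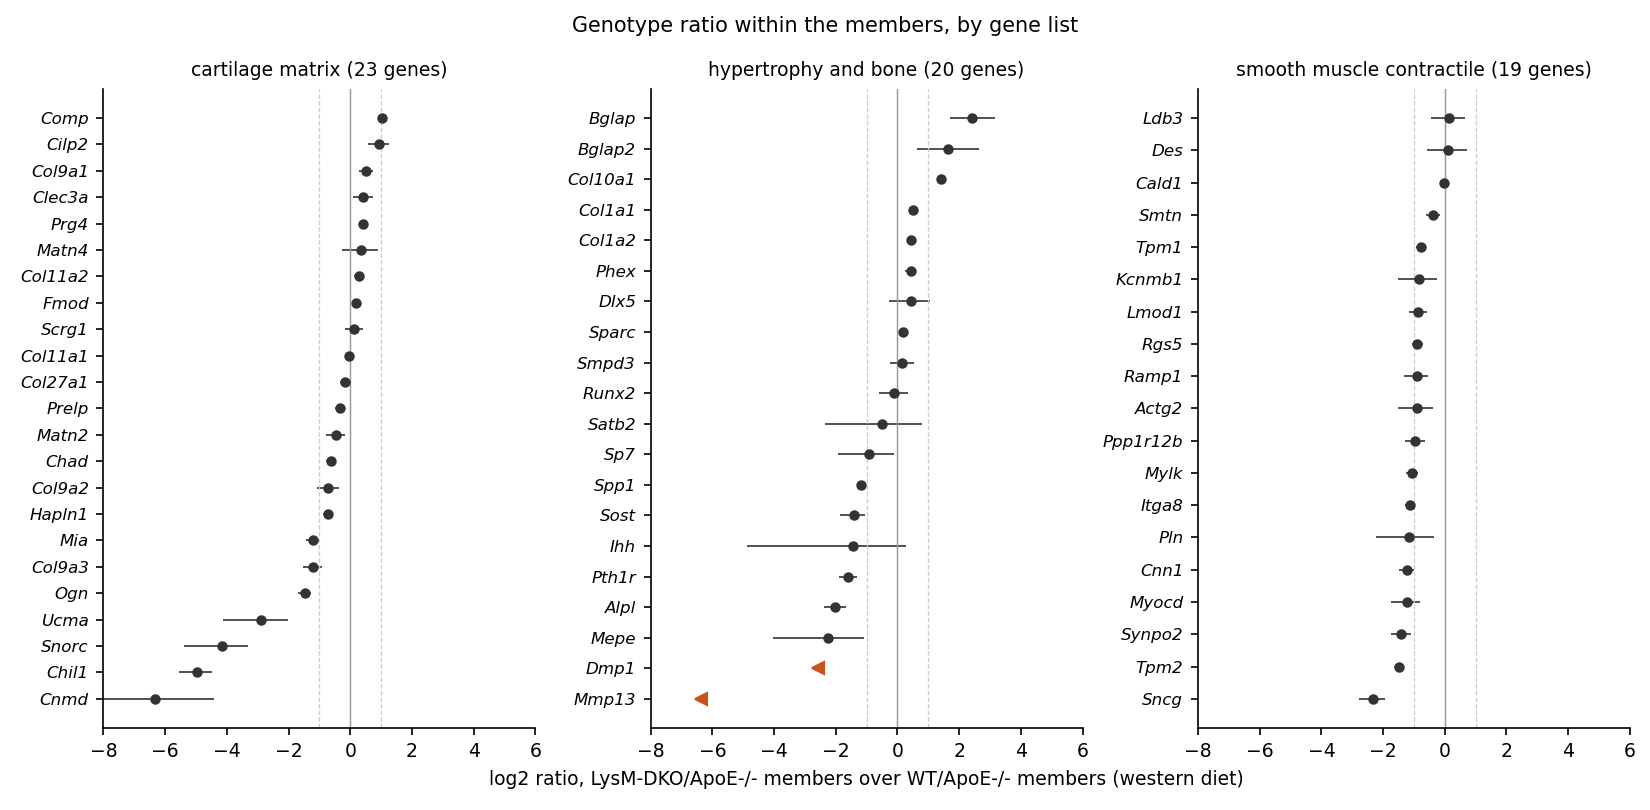
Log2 ratio of LysM-DKO/ApoE-/- over WT/ApoE-/- members on western diet for each gene measured of 3 lists, with exact 95% intervals for counting error and dashed lines at 2-fold. Triangles mark upper bounds for Dmp1 and Mmp13, which had 0 UMIs in LysM-DKO/ApoE-/-, and the Cnmd interval runs past the axis to -12.22. Most points of the contractile list lie below 0, and the cartilage list runs from Comp at 1.03 to Cnmd at -6.33.

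Contractile genes were lower in the LysM-DKO/ApoE-/- members, with 8 of 19 at least 2-fold lower, none higher and a median of -0.91. Acta2 had a log2 ratio of -1.58 (-1.65 to -1.51). The rule caps these genes in members. With the contractile limit at 1%, the WT/ApoE-/- share of members was 2.69% in place of 6.23%.

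The genes named by size included several with known roles in matrix breakdown. Mmp3 (stromelysin) stood at 39.2, 175, 598 and 35.2 CPM in members, and Ctsk (cathepsin K, a collagenase of osteoclasts) at 16.8, 15.9, 144 and 12 CPM. Their log2 ratios were -4.07 (-4.54 to -3.67) and -3.54 (-4.40 to -2.88), against -0.94 and -0.58 in modulated barcodes. Mmp3 was seen in 347 of the WT/ApoE-/- members (median 2258 UMIs) and in 5 of the LysM-DKO/ApoE-/- members (median 15530 UMIs). Mmp3 was also lower in contractile barcodes, at -3.53, and in fibroblast barcodes, at -1.34. In WT/ApoE-/- it stood higher in modulated and fibroblast barcodes, at 854 and 2157 CPM, than in members. In WT/ApoE-/- members without and with UMIs of the 7 macrophage genes, Mmp3 stood at 592 and 615 CPM, Ctsk at 125 and 199.9 CPM and Chil1 at 665 and 863 CPM. The part of macrophage transcripts in these differences was not tested.

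Wif1 had a log2 ratio of -3.90 (-4.56 to -3.36) between the genotypes in members and of -0.16 in modulated barcodes. Hp (haptoglobin) was at 267 and 51.6 CPM, and Smoc2, a matricellular calcium-binding protein, at 189 and 44.9 CPM. Between the same libraries Hp had log2 ratios of 1.02 in modulated, -4.63 in contractile and -2.55 in fibroblast barcodes. Smoc2 had -0.15, -2.37 and 0.43 in the same order. Lyz2, the macrophage lysozyme gene, had 673 UMIs in WT/ApoE-/- members and 0 in LysM-DKO/ApoE-/-, all in members that held macrophage UMIs, since Lyz2 is itself one of the markers. It was lower in the other classes of LysM-DKO/ApoE-/- as well, at 392 and 10.96 CPM in the other kept barcodes and with 0 CPM against 43.8 CPM in modulated barcodes. Sncg was lower in members by -2.34 and also in modulated, contractile and fibroblast barcodes by -2.31, -3.65 and -3.73.

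Among genes higher in the LysM-DKO/ApoE-/- members, Meg3, an imprinted long noncoding RNA, had a log2 ratio of 3.32 (3.14 to 3.5). It stood at 481, 537, 76.5 and 764 CPM in the members of the 4 libraries, lowest in WT/ApoE-/-. It was seen in 60 of 81 members and in 171 of 856. These numbers were taken at full depth, where the members had medians of 15530 and 2258 UMIs. Meg3 was not counted after thinning, so the part of depth in them was not tested. Meg3 was also higher in the modulated and fibroblast barcodes of LysM-DKO/ApoE-/-, at 1.29 and 1.07, and stood at 0.31 in contractile barcodes. Its UMIs were spread, with 26.0% of them in the 5 highest LysM-DKO/ApoE-/- members.

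Spink5, a serine protease inhibitor, stood at 0, 0, 26.6 and 231 CPM, and Ereg, an EGF family ligand, at 67.2, 106, 75.2 and 490.2 CPM. The 5 highest LysM-DKO/ApoE-/- members held 59.5% of the UMIs of Spink5 and 72.1% of those of Ereg. Cyp1b1, Calcrl and Plk2 had log2 ratios of 2.83, 2.27 and 2.20, and Trf had 2.63 with 66.2% of its UMIs in 1 member and 1.10 without that member. AI506816 and Gm10076 had 4.36 and 2.33, and they differed alike in the other classes, at 3.43 and 2.19 in modulated and 2.81 and 2.21 in contractile barcodes.

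The other lists are given by their counts, to be read beside the 4.06% higher and 6.35% lower over all genes. None of 8 calcification inhibitors and none of 17 dissociation stress genes passed 2-fold. Of glycosaminoglycan genes, 2 of 23 were higher and 1 lower, and of proteases 1 of 19 was higher and 5 were lower. Of the BMP and TGF-beta list, 3 of 34 were higher and 4 lower, and of the Wnt, FGF, IGF and hedgehog list, 3 of 33 were higher and 7 lower. Of modulation genes 3 of 24 were higher and 3 lower, of lipid genes 1 of 20 was higher and 3 were lower, and of hypoxia genes 3 of 17 were higher and 1 lower.

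Collagen processing genes were mostly a little higher, with a median of 0.44 over 23 genes, of which Plod1 at 1.08 and Plod3 at 1.07 were at least 2-fold higher. Both are lysyl hydroxylases that prepare collagen for crosslinking. Inflammation genes split, with Ccl2, Ccl7, Ptgs2 and Il6 at least 2-fold higher and Saa3, C3, C1s1 and Lcn2 lower, of 20. Ccl2 and Ccl7 rested on few cells, since 1 member held 64.0% and 65.9% of their UMIs in LysM-DKO/ApoE-/-, and without it the log2 ratios were 0.42 (-0.25 to 1.02) and 0.17 (-0.85 to 1.03). Cell cycle genes were at least 2-fold higher for 9 of 14 measured, with a median of 1.40 that turned to -1.48 with at least 10 marker UMIs and to -0.67 with at least 3 rule genes seen. Without the 1 member richest in each, Mki67 and Top2a stood at 0.79 and 0.79, and Cdk1, Ccnb2 and Birc5 at -0.23, -0.09 and -0.11. In all, 94.8% of the summed UMIs of the 10 cycling genes lay in 5 of the 81 members.

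Members differed among themselves by which rule gene led. In WT/ApoE-/-, Ibsp UMIs exceeded those of Col2a1 and Acan together in 343 members and were below them in 467, with 46 equal. In LysM-DKO/ApoE-/- the numbers were 9 and 72. The Ibsp-led share was 40.1% (36.8 to 43.4) and 11.1% (5.21 to 20.05). The division is a line through a range, since 259 of the WT/ApoE-/- members lay within 2 UMIs of it.

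**Figure D5:**
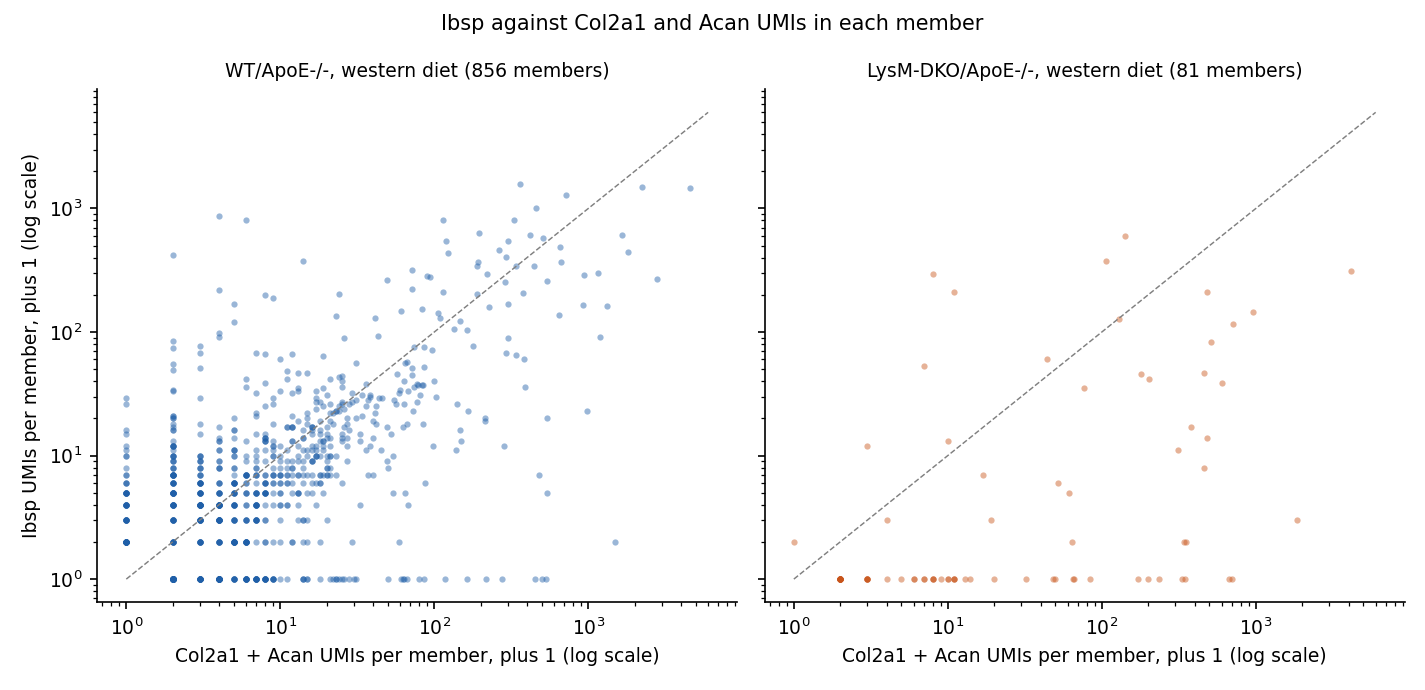
UMIs of Ibsp against UMIs of Col2a1 and Acan together in each member of the western diet libraries, both plus 1 on log scales, with a dashed line of equality. In WT/ApoE-/- 343 of 856 members lie above the line, and in LysM-DKO/ApoE-/- 9 of 81 do, where 33 members held any Ibsp.

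Ibsp-led members of WT/ApoE-/- (median 2246 UMIs) differed from Col2a1-led and Acan-led members (median 2648 UMIs) in few genes. Of 10226 measured, 1.67% were at least 2-fold higher and 1.72% at least 2-fold lower. Higher in the Ibsp-led members were Mmp13 by a log2 ratio of 1.93 (1.72 to 2.16), Hp by 1.83, Comp by 1.22, Chad by 1.16 and Col10a1 by 1.15. The Mmp13 ratio rests on few cells, since most of its UMIs lay in few members, as given above. Lower were Col9a1 at -1.60, Col11a1 at -1.58, Scrg1 at -1.09 and Col9a3 at -1.03.

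In the 9 Ibsp-led members of LysM-DKO/ApoE-/-, the signs were the same for Comp at 0.97, Chad at 1.54, Col10a1 at 0.69, Col11a1 at -2.26, Scrg1 at -2.47 and Col9a3 at -2.07. The sign was opposite for Penk, at 1.26 and -2.06, for Col9a2, at -0.93 and 1.21, for Enpp2, at -0.90 and 2.56, and for Inhba, at -0.98 and 1.30. Alpl was higher in the Ibsp-led members at 0.76 (0.57 to 0.94) in WT/ApoE-/- and 4.44 (3.66 to 5.35) in LysM-DKO/ApoE-/-, where 1 member held 52.8% of its UMIs. Other genes named by size in WT/ApoE-/- were Mmp12, Gpx3, Nrp2 and Bpifb1, higher in the Ibsp-led members, and Tnfaip6 and Fbln2, lower in them. Mmp12, a macrophage elastase, had 251 of its UMIs in the 288 members with macrophage UMIs, at 225 CPM, and 24 in the other 568, at 7.30 CPM.

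The number of rule genes seen per member also differed by library. Of the WT/ApoE-/- members, 239 showed 2 of the 4 genes, 314 showed 3 and 303 showed all 4, and in LysM-DKO/ApoE-/- the numbers were 39, 21 and 21. The most abundant members held much of the signal, since 5 of the WT/ApoE-/- members held 29.4% of the Col2a1 UMIs and 5 of the LysM-DKO/ApoE-/- members held 55.9%. For Ibsp these shares were 20.5% and 62.3%. Levels in LysM-DKO/ApoE-/- therefore rested on fewer cells.

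At the edge of the rule, the 99 WT/ApoE-/- members with 5 or 6 marker UMIs had a median of 1833 UMIs, Sox9 at 165 CPM and Comp at 307 CPM. The 169 barcodes just outside, with 3 or 4 marker UMIs, had Sox9 at 165.1 CPM and Comp at 183 CPM. The 757 members with at least 7 marker UMIs had Sox9 at 626 CPM and Comp at 1047 CPM. In LysM-DKO/ApoE-/- 4 members lay just inside the edge, with Sox9 at 58.7 CPM and Comp at 78.2 CPM, and 10 barcodes just outside, with 86.9 CPM and 376 CPM. Barcodes with at least 5 UMIs of a single rule gene, which the rule left out, numbered 172, 223, 181 and 248, and 152, 214, 105 and 203 of these held Cytl1 alone. Such barcodes carried the endothelial marker Pecam1 at 1130.5, 1334, 332 and 816 CPM where they met the other limits of the rule.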

How the data were processed

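Single-cell RNA of digested mouse aorta had been captured with the 10x Chromium 3' kit. The authors deposited UMI counts per gene and cell barcode, unnormalized, for 32285 features in each of 4 libraries. The file headers name Cell Ranger 6.0.1 for both normal diet libraries and 6.1.2 for both western diet libraries, while the submitters' processing notes name Cell Ranger 6.1.2, Seurat 4.1.0 and the build mm10. Whether doublets or free RNA had been removed is not given in the sources used here.

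From these deposited counts, 37865 of 70795 barcodes were kept for reaching 1000 UMIs without passing 10% mitochondrial UMIs, and members were found by the rule. CPM of a class is its summed UMIs of a gene over its summed UMIs of all genes, per 1000000. A log2 ratio had 0.5 UMI added to each side, an exact binomial 95% interval, and was computed for genes with at least 20 UMIs over both sides. A 2-fold ratio is used as a size limit, not a test. A gene at 0 was set against a floor of 3 counts over the class. The members and lists were chosen with earlier results of these data known.

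Genes beyond the lists were named by size: the 20 highest ratios of members over other kept barcodes in WT/ApoE-/-, and the 10 highest and 10 lowest ratios of each other comparison, with at least 100 CPM on the higher side, leaving out mitochondrial, ribosomal protein, hemoglobin, immunoglobulin, Y-linked, Xist and rule genes. A few genes that this rule names are not reported here. Ratios over other and modulated barcodes also had to reach 2-fold in both libraries, and the others needed an interval apart from 0. Lymphocyte barcodes held at least 2 UMIs of Cd3d, Cd3e, Cd3g, Cd79a and Cd79b and met the limits on complement and contractile genes, with no limit on rule genes. Doublets were kept, and scrublet (scanpy 1.11.5), which marked 3, 0, 30 and 0 members, served as an alternative. Scripts used Python 3.11.15, numpy 2.4.6, scipy 1.17.1 and pandas 2.3.3 and were tested on simulated data. Alternatives varied each limit of the rule, the gene minimum, doublets, depth and the weight of barcodes. Since a group was 1 library, no replicate could be left out.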

Additional observations from a re-analysis of the deposited data

Results flagged for a closer look

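Of 305 list genes measured against modulated barcodes in both western diet libraries, 25 had opposite signs with both intervals apart from 0, and 2 of these passed 2-fold each way. Wif1, the secreted Wnt inhibitor, had a log2 ratio of members over modulated barcodes of 2.62 (2.45 to 2.79) in WT/ApoE-/-, from 1253 and 345 UMIs, and of -1.12 (-1.90 to -0.40) in LysM-DKO/ApoE-/-, from 25 and 45 UMIs. Its UMIs came from 295 and 12 members. Cd36, a receptor for oxidized lipoproteins and fatty acids, had -3.60 (-5.67 to -2.36) in WT/ApoE-/-, from 4 and 92 UMIs, and 2.15 (1.27 to 3.28) in LysM-DKO/ApoE-/-, from 62 and 11 UMIs. All 62 lay in 3 members and 41 of them in 1 member. These differences between libraries were not tested, since each group had 1 library.

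Barcodes from 500 to under 1000 UMIs were outside the comparisons, and 407 of 12412 of them met the other limits of the rule in WT/ApoE-/- (3.28%, 2.97 to 3.61). In the other libraries these were 0 of 1281, which allows a share of up to 0.234%, 0 of 1406, which allows up to 0.213%, and 1 of 902 in LysM-DKO/ApoE-/- (0.111%). In the 407 barcodes Col2a1 stood at 7293 CPM, Ibsp at 7363.5 CPM, Cytl1 at 4848 CPM, Acan at 836 CPM, Sox9 at 579 CPM and Comp at 1087 CPM. Their median was 12 marker UMIs.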

How the results depend on the processing

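No paired analysis was possible because each group had 1 library. The share of members, 0.180%, 0.207%, 6.23% and 0.996%, moved by more than its interval as follows. With at least 3 rule genes seen it was 0 of 7758 (which allows up to 0.0387%), 0.0243%, 4.49% and 0.516%, and after thinning to 1000 UMIs 0.0129%, 0.0243%, 4.34% and 0.430%. With members that held Col2a1 alone counted, chosen after seeing the data, it was 0.0387%, 0.0365%, 4.92% and 0.738%. In WT normal diet it was 0.06445% with at least 10 marker UMIs and 0.0773% with the contractile limit at 1%. In WT/ApoE-/- it was 4.83% from 500 UMIs, 4.63% with 10 marker UMIs, 5.06% with 0 C1q UMIs, 2.69% and 7.39% with the contractile limit at 1% or none, and 6.86% without doublets. The WT/ApoE-/- share was 3.08-fold to 10.1-fold that of LysM-DKO/ApoE-/- under these settings, depth bins left aside.

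Counts of genes past 2-fold moved with the gene minimum, which sets how many genes are measured. With a minimum of 1 UMI, genes higher in members than in the others were 4953 in WT/ApoE-/- (980 at 20 UMIs) and 7998 in LysM-DKO/ApoE-/- (2161). Against modulated barcodes they were 2319 higher (606) and 1893 lower (672) in WT/ApoE-/-, and 2360 higher (569) and 3146 lower (831) in LysM-DKO/ApoE-/-. Between genotypes they were 1892 higher (444) and 1972 lower (694). With a minimum of 50 UMIs, 391 were lower against modulated barcodes in WT/ApoE-/-, 353 higher and 423 lower in LysM-DKO/ApoE-/-, and 212 higher and 365 lower between genotypes. Genes lower than in modulated barcodes were 1330 in WT/ApoE-/- with the contractile limit at 1% and 1280 in LysM-DKO/ApoE-/- with 3 rule genes. With equal weight per barcode, 772 genes were higher in LysM-DKO/ApoE-/-.

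A few list medians turned sign. The cell cycle list, in few members, had 1.40 between genotypes, but -1.48 with at least 10 marker UMIs and -0.67 with 3 rule genes, and 2.69 over other barcodes in LysM-DKO/ApoE-/-, but -0.80 and -1.16. The neutrophil list over other barcodes there had -1.66, but 0.010 from 2000 UMIs. The endothelial list between genotypes had 1.39, but -1.33 without members of 2 or more endothelial UMIs, a setting chosen after seeing the data. Without the 1 member richest in the gene, also chosen after seeing the data, the genotype ratio was -0.76 for Col10a1, -0.23 for Cdk1, -0.091 for Ccnb2 and -0.11 for Birc5, from 1.42, 1.26, 1.47 and 1.52. The cause of the turned medians was not tested. In LysM-DKO/ApoE-/- depth limited levels under 2.25 CPM in members and under 2.74 CPM in modulated barcodes. On normal diet it limited levels in members under 16.8 CPM in WT and 15.9 CPM in LysM-DKO.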
